A study of Aedes aegypti with 20 samples.

Results

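In the yellow fever mosquito Aedes aegypti, the difference between males and females was not the same in the hearing organ as in the head for 1352 of 11381 genes tested. In 1164 of these genes the sexes differed in the pedicel and were not called different in the head. The opposite case, a sex difference in the head with none called in the pedicel, held for 61 genes. Each contrast was adjusted on its own, and the p needed for a call was stricter in the head than in the pedicel. In 45 genes the sexes differed in the same direction in both tissues by unequal folds, and in 20 genes the direction turned round between the tissues. For the last 62 genes neither tissue passed the test on its own. These forms were read from 1 contrast, the male over female log2 fold of the pedicel minus that of the head, fitted over all 20 libraries of the series.

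The pedicel is the swollen antennal segment that houses Johnston's organ, the mosquito ear. Male mosquitoes find flying females by the sound of their wings, and the male organ is the larger, with more sensory neurons. The head holds the brain, the eyes and the mouthparts, which in females serve blood feeding. Some differences between the sexes may belong to the ear and others may be shared with the head, and the interaction asks which of these a gene shows. Bulk RNA cannot tell fewer cells of a type from less RNA per cell.

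The 4 groups were male pedicels, female pedicels, male heads and female heads of the Liverpool strain, with 5 libraries each. Males were virgin and females had not taken blood. Whether the heads still carried their antennae is not stated in the labels, and the column names of the table call them brain, so a head value may hold some antennal RNA or none. All groups were kept for 2 days on a fixed light cycle and frozen at zeitgeber time 12, the zeitgeber being the clock of that cycle. Whether different animals went into each of the 5 libraries is not in the labels, and the p-values rest on the spread between these libraries, which may be technical. No ID of the table matched a gene name, so that genes appear by their ID alone and the tissues were not checked against marker genes.

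The libraries held between 5060010 and 9404311 estimated counts. Male pedicel 2 stood apart from the other male pedicels. The level of 50 transcripts abundant in the head, in percent of the mean of all heads, was 36.6% in that library and 4.34% to 5.64% in the other 4 male pedicels, against 34.1% to 67.8% in female pedicels. Heads lay between 94.5% and 108%. The 50, summed by gene ID, were chosen for their lowest value in any pedicel relative to heads, a choice that favours a gap between pedicels. The share of counts in transcripts with an identical copy under another gene ID also varied, from 2.17% to 35.2% in pedicels. Levels are given below as normalised read counts, as CPM (a library's counts scaled to a fixed total), with the SD over 5 libraries.

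The interaction was called for 11.9% of the genes tested, at an adjusted p under 0.05. The sexes differed in the pedicel in 39.5% of the genes and in the head in 7.86%, so the pedicel held most of the calls from which any form could be built. The fit shares 1 spread per gene between the tissues. With another tool, voomLmFit, and a spread per tissue, more genes were called in the head and in the head-alone form, as given in the last part. How much the shared spread adds to the gap between the tissues was not tested. A positive interaction means that male over female was higher in the pedicel than in the head. Positive were 735 genes (6.46% of those tested) and negative were 617 (5.42%). With library totals alone in place of TMM scaling, 426 genes were called, 299 positive and 127 negative, and that scaling moved the median interaction log2 fold of all genes by 0.305. The call was held in all 20 fits that left out 1 library each by 806 of the 1352 genes (59.6%). The number called was 2694 without male pedicel 2, and the 617 negative genes became 376 without male pedicel 1 or male pedicel 5, and 386 without female pedicel 4.

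**Figure D1:**
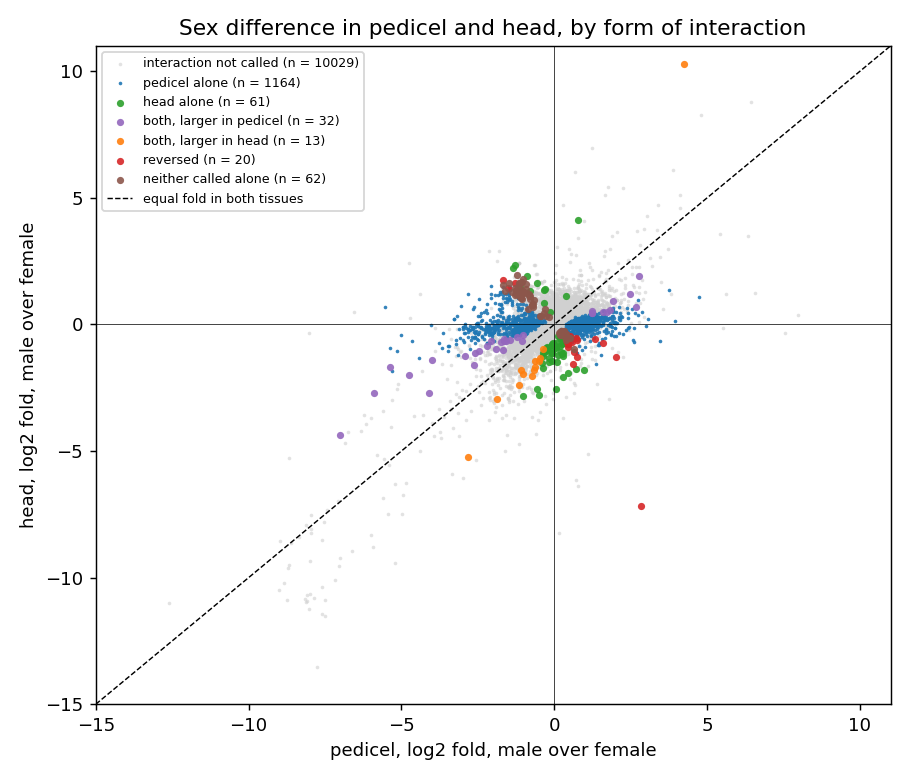
Log2 fold of male over female in the pedicel (x axis) and in the head (y axis) for all 11381 genes tested, with 1 point per gene and the 1352 interaction genes coloured by form. Most coloured points lie along the horizontal line at 0, which are the 1164 genes of the pedicel-alone form, while the 45 genes with unequal folds in the same direction lie off the dashed line of equal folds.

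The male pedicel was the group that stood apart. It had the highest mean of the 4 groups in 682 of the 735 positive genes and the lowest in 546 of the 617 negative genes. Over all 11381 genes it was highest in 3836 and lowest in 3237. A high male pedicel helps to make an interaction positive and a low one negative. These counts thus follow in part from the sorting and carry no test. The same limit applies to the order of the groups within each form below. Positive genes were mostly higher in the pedicel, with 527 of 735 (71.7%) called so over both sexes, against 31.4% of all genes. Negative genes were mostly higher in the head, with 422 of 617 (68.4%) called so, against 26.8% of all genes. The tissue contrast uses the same libraries as the interaction, so these shares describe the genes and carry no test.

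Genes with a sex difference in the pedicel and none called in the head made up 10.2% of the genes tested. Of the 1164, 630 were higher in males and 534 lower. Median levels of the 630 were 73.9 CPM in male pedicels, 38.5 CPM in female pedicels, 36.1 CPM in male heads and 34.2 in female heads. Male pedicels thus stood alone, with the other 3 groups close together. The male pedicel was the highest group in 616 of the 630. Median levels of the 534 were 10.9 CPM in male pedicels, 27 CPM in female pedicels, 29.3 CPM in male heads and 28.7 in female heads. Here the male pedicel was the lowest group in 486 and the female pedicel the highest in 193, so that for most of these genes the female pedicel lay within the range of the other groups.

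A gene not called in the head may still differ there. Each contrast had its own Benjamini-Hochberg adjustment, and with fewer calls in the head the p needed there was smaller. In the pedicel AAEL022995 was called at an unadjusted edgeR p of 0.0186, while in the head AAEL004124 was not called at 0.00553. The split between pedicel-alone and head-alone genes thus rests in part on this cut. The 95% interval of the head fold stayed within 2-fold in either direction for 584 of the 630 positive genes and 388 of the 534 negative ones. For the other genes that interval reached past 2-fold, so a head difference of that size could not be told from none. In all 20 fits that left out 1 library, 643 of the 1164 stayed in this form (55.2%). With library totals alone the form held 338 genes, 269 positive and 69 negative.

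The positive genes with the largest interaction were near the floor of the head data. AAEL029085 was at 36.3, 21.1, 45.9, 47.3 and 45.3 CPM in male pedicels 1 to 5 and at 3.53, 4.6, 1.85, 2.45 and 5.36 CPM in female pedicels. In heads it was at 0.882 to 1.85 CPM in males and at 0.776 to 6.09 CPM in females, the highest in female head 4. All male pedicels lay above every other library, and male and female heads overlapped. The interaction log2 fold of AAEL029085 was 4.09 (SE 0.63, edgeR adjusted p = 4.35e-04), and 3.30 without female head 4. The call on AAEL029085 was lost with the level of head transcripts as a covariate. AAEL027785 was at 33.1, 18.7, 19.8, 21.4 and 32.2 CPM in male pedicels and at 1.13, 1.47, 1.85, 1.56 and 2.3 CPM in female pedicels. Heads held 1.1 ± 0.623 CPM in males and 0.971 ± 0.374 CPM in females, so that female pedicels stood close to heads of both sexes. The interaction log2 fold of AAEL027785 was 3.79 (SE 0.48, edgeR adjusted p = 6.86e-05), and it was called at an adjusted p under 0.05 in each of 36 alternative fits.

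The largest negative genes of the pedicel-alone form were expressed in the female pedicel and scarce elsewhere, unlike the median of their form. AAEL004002 was at 0.233, 0.209, 1.39, 1.28 and 0.677 CPM in male pedicels and at 14.1, 32.2, 25, 17.4 and 20.4 CPM in female pedicels. Heads held 1.03 ± 0.283 CPM in males and 1.4 ± 0.345 CPM in females. Female pedicels lay above all other libraries by a wide gap, and male pedicels were level with heads or below them. The interaction log2 fold of AAEL004002 was -4.61 (SE 0.54, edgeR adjusted p = 3.5e-05). AAEL017043 had 7 counts over the 5 male pedicels and 274 over the female pedicels (6.63 to 13.4 CPM per library), with 11 over male heads and 7 over female heads. Nearly all of its counts were in female pedicels, through which it passed the count filter, with an interaction log2 fold of -6.23 (SE 1.12, edgeR adjusted p = 0.0015). The head log2 fold was 0.68 (SE 0.83), and so few counts cannot show that the sexes were equal in the head. The interaction of AAEL004002 and that of AAEL017043 were called in each of the 36 alternative fits.

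**Figure D2:**
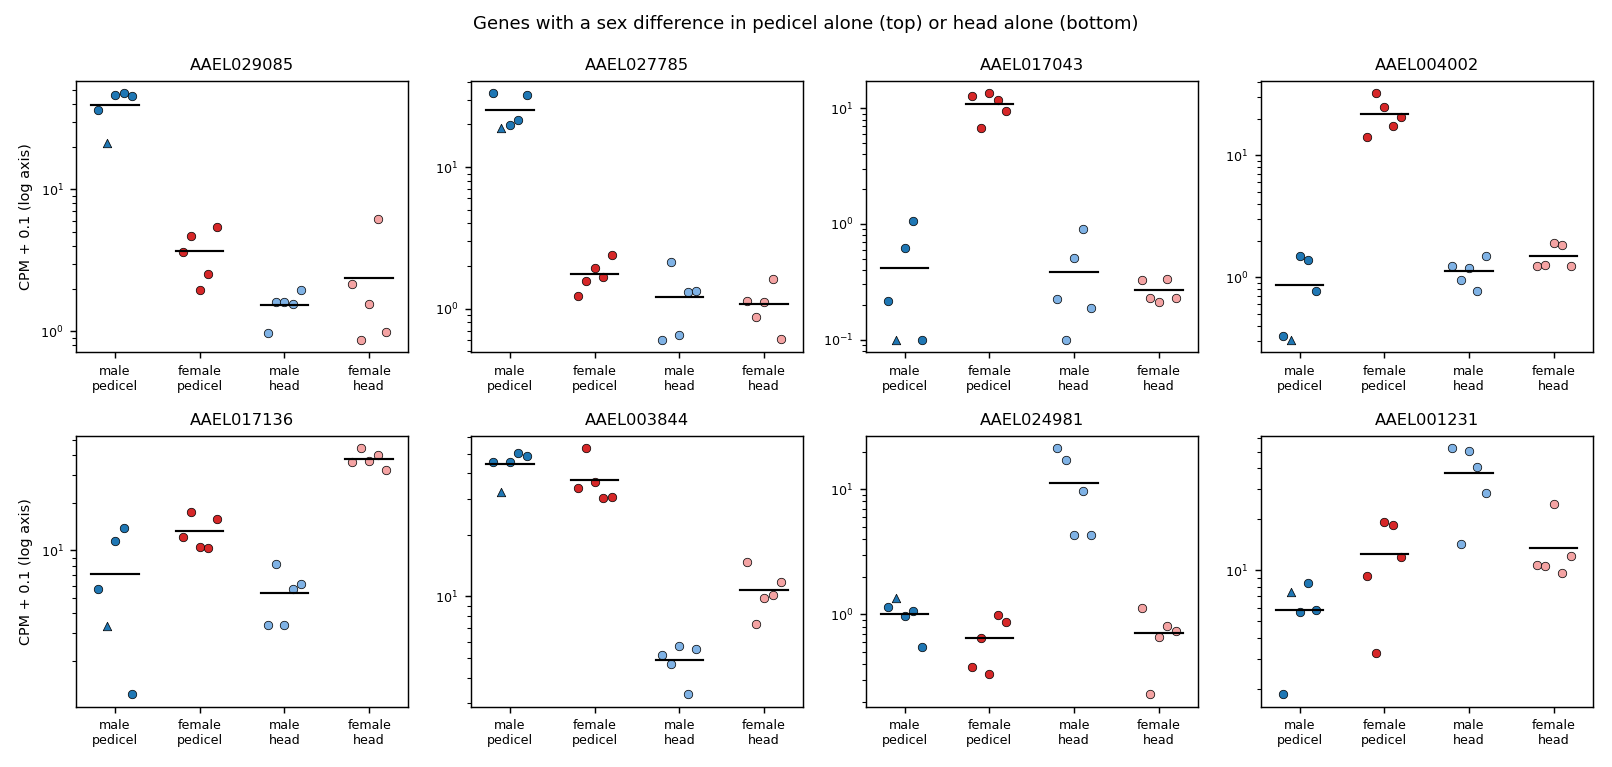
CPM + 0.1 on a log axis in each library of male pedicels, female pedicels, male heads and female heads for 4 genes of the pedicel-alone form (top) and 4 of the head-alone form (bottom). Points are libraries, triangles are male pedicel 2 and bars are group means; in the top row 1 pedicel group stands apart from the other 3 groups, and in the bottom row the sexes stand apart in the head, except in AAEL001231, where they overlap.

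Male pedicel 2 sat between the other male pedicels and the female pedicels over these genes. Over the 534 negative genes, its median level was 59.7% of the female pedicel mean, against 34.4% to 38.1% in the other 4 male pedicels. Over the 630 positive genes it stood at 146%, against 188% to 210% in the other 4. The order is that of the head transcripts, whose level in this library was also nearer to that of female pedicels. The part of the head transcripts in these values was not tested.

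Without male pedicel 2, 2694 of 11536 genes were called (23.4%), 1104 positive and 1590 negative. Of the 1352 genes, 1351 were still called, all with the same sign, and 1287 were in the same form. The 1343 genes gained were mostly negative, at 370 positive and 973 negative. Over the 966 gained negative genes tested in both fits, male pedicel 2 stood at 104% of the female pedicel mean, while the other 4 male pedicels lay between 44.3% and 49.5% and heads between 131% and 158%. These genes were thus higher in heads than in female pedicels. They were picked as called only without male pedicel 2, so the place of that library near the female level follows largely from the choice. The forms without that library held 2321 genes in the pedicel alone (920 positive, 1401 negative), 103 in the head alone, 120 in the same direction with unequal folds, 37 reversed and 113 with neither tissue called. Of the genes that changed form, 21 went from the pedicel alone to both tissues with the larger fold in the pedicel and 12 from the pedicel alone to reversed.

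**Figure D3:**
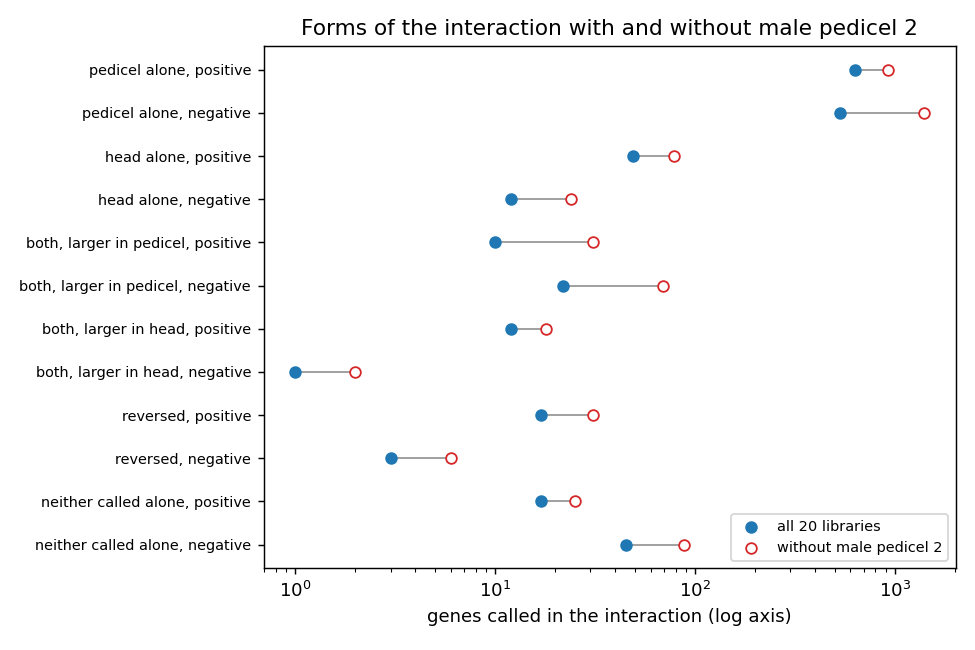
Number of genes called in the interaction (log axis) by form and sign, with filled points for all 20 libraries and open points for the fit without male pedicel 2. Every form and sign holds more genes without that library, and the widest gain in number is in the negative genes of the pedicel-alone form, with 1401 without it and 534 with all libraries.

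**Figure D4:**
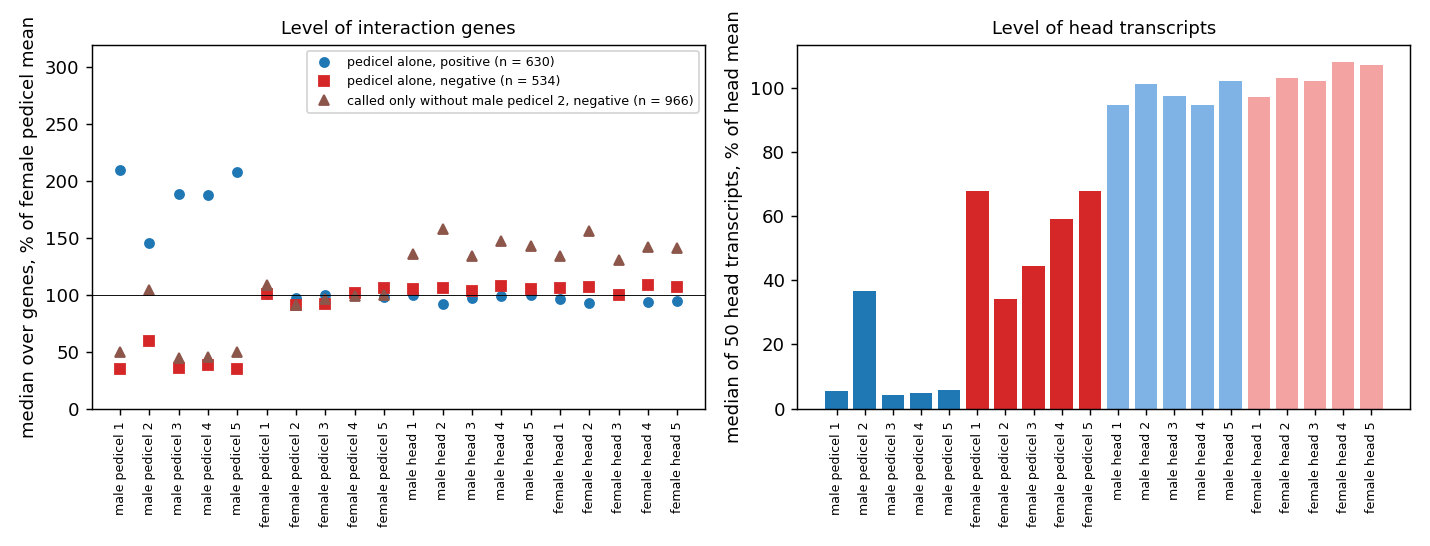
Left, the median level of 3 sets of interaction genes in each library, in percent of the female pedicel mean; right, the median of 50 head transcripts in each library, in percent of the mean of all heads. In both panels male pedicel 2 lies nearer to the female pedicels than the other 4 male pedicels do, and it has 36.6% of the head transcript level. For the set called only without male pedicel 2, the level of that library follows largely from the choice of the genes. The 50 head transcripts were chosen by pedicel values too, which favours a gap between pedicels.

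When the head transcript level of each library entered the fit as a covariate, 43 interaction genes were called, 26 positive and 17 negative. The level differs between the pedicels of the sexes, so a change with sex in the pedicel and a change with that level cannot be told apart by this fit. The pedicels were also split by identical-copy share, with all heads kept. The 5 pedicels of lower share (male 1, 2 and 5, female 1 and 2) gave 466 genes, 364 positive and 102 negative, and 2051 without male pedicel 2, 798 positive and 1253 negative. The 5 of higher share (male 3 and 4, female 3 to 5) gave 2275, 889 positive and 1386 negative. The interaction was thus called in either set of pedicels, and its number in the lower one moved with male pedicel 2.

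The head-alone form held 61 genes, 0.536% of those tested. In 49 of them the interaction was positive, with males lower than females in the head, and the male head was the lowest of the 4 groups in all 49. Their median levels were 27.1 CPM in male pedicels, 24.3 CPM in female pedicels, 7.93 CPM in male heads and 16.7 in female heads. In the other 12, males were higher in the head, with medians of 7.23, 11.4, 16.8 and 6.73 CPM in male pedicels, female pedicels, male heads and female heads. The pedicel fold had a 95% interval within 2-fold for 42 of the 49 positive genes and 3 of the 12 negative ones, so for most of the negative genes a pedicel difference of that size could not be told from none. Of the form, 24 of the 61 stayed in this form in all 20 fits that left out 1 library. The number in the form was 103 without male pedicel 2, 109 without female pedicel 2, 102 without female head 3, 34 without male head 1 or female head 1, 36 without female head 4 and 40 without male head 3 or female head 5. The balance of signs moved with 2 head libraries, to 46 positive and 44 negative without male head 2 and to 50 positive and 52 negative without female head 3. The negative genes also numbered 24 without male pedicel 2, 26 without female pedicel 2, 3 without male head 1, 5 without male head 3 or female head 1 or 5, 6 without male head 4 or female head 4, 7 without male pedicel 5 or female head 2, and 8 without male pedicel 3 or male head 5. With library totals alone there were 12 positive and 32 negative genes.

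AAEL003844 showed the positive head-alone form at a high pedicel level. It was at 45.5, 32.2, 45.2, 50.5 and 48.4 CPM in male pedicels and at 33.8, 53, 36.3, 30.3 and 30.7 CPM in female pedicels. In heads it was at 5.04, 4.57, 5.6, 3.21 and 5.45 CPM in males and at 14.6, 7.24, 9.71, 10.1 and 11.7 CPM in females. The sexes overlapped in the pedicel and did not overlap in the head, where every male library was lower. AAEL003844 had an interaction log2 fold of 1.42 (SE 0.28, edgeR adjusted p = 0.00284), and the call was lost in the 5 pedicels of lower identical-copy share and with the head transcript covariate. AAEL017136 averaged 6.99 ± 5.34 CPM in male pedicels, 13.2 ± 3.23 CPM in female pedicels, 5.27 ± 2.05 CPM in male heads and 37.8 ± 4.52 in female heads. Female heads held far more of it than any other group. Its interaction log2 fold of 1.83 (SE 0.59, edgeR adjusted p = 0.0497) stood just inside the threshold, and its call was lost in 16 of 20 fits that left out 1 library, all but those without male pedicel 2, male pedicel 5, female pedicel 2 or male head 2. It was also lost in 9 of 16 other alternatives.

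AAEL024981 was abundant in male heads and scarce elsewhere. It was at 21.2, 16.9, 4.23, 9.63 and 4.22 CPM in male heads and at 0.129 to 1.03 CPM in female heads. Pedicels held 0.915 ± 0.296 CPM in males and 0.545 ± 0.29 CPM in females, and the sexes overlapped there. The interaction log2 fold was -3.36 (SE 0.85, edgeR adjusted p = 0.0144), and the call was lost with limma-voom and in either split of the pedicels. AAEL001231 averaged 5.73 ± 2.5 CPM in male pedicels, 12.4 ± 6.71 CPM in female pedicels, 37.1 ± 16 CPM in male heads and 13.4 ± 6.2 in female heads. The sexes overlapped in both tissues, in the head through male head 2 at 14.2 CPM and female head 3 at 24.4 CPM, and its interaction log2 fold was -2.59 (SE 0.64, edgeR adjusted p = 0.0129). AAEL001231 was called in each fit that left out 1 library but was in the head-alone form in 7 of the 20, and its call was lost with the head transcript covariate and in the pedicels of lower identical-copy share, with or without male pedicel 2.

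Sex differences in the same direction in both tissues, with unequal folds, were found for 45 genes. The larger fold was in the pedicel for 32 genes (0.281%), 10 positive and 22 negative, and in the head for 13 genes (0.114%), 12 positive and 1 negative. The 22 genes lower in males in both tissues, and more so in the pedicel, had medians of 9.24 CPM in male pedicels, 39.2 CPM in female pedicels, 17 CPM in male heads and 33.2 in female heads. The 12 genes lower in males in both tissues, and more so in the head, had medians of 38.7, 86.6, 13.8 and 73.2 CPM in male pedicels, female pedicels, male heads and female heads. The number was 120 without male pedicel 2, and between 23 and 29 without male pedicel 1, female pedicel 5, male head 1, 3, 4 or 5, or female head 1, 4 or 5. With library totals alone it was 14, 9 positive and 5 negative.

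AAEL008745 was higher in males in both tissues. It was at 255, 145, 181, 241 and 226 CPM in male pedicels and at 27.5, 46, 33.1, 29.2 and 29.6 CPM in female pedicels. In heads it was at 7.81, 12.3, 11.3, 8.43 and 10.1 CPM in males and at 6.99, 5.56, 5.53, 7.14 and 5.87 CPM in females. Males lay above females in both tissues without overlap, by a log2 fold of 2.66 in the pedicel (SE 0.18) and 0.68 in the head (SE 0.18). The difference between these folds was 1.98 (SE 0.25, edgeR adjusted p = 6.57e-05), it was called in each of the 36 alternative fits, and it was 1.30 with the head transcript covariate. AAEL008036, at 274 ± 87.2 CPM in male pedicels, 49.3 ± 18.9 CPM in female pedicels, 5.56 ± 1.38 CPM in male heads and 2.42 ± 0.637 in female heads, had an interaction log2 fold of 1.27 (SE 0.41, edgeR adjusted p = 0.0498). That call was lost in 17 of 20 fits that left out 1 library, all but those without male pedicel 2, female pedicel 3 or male head 5, and the fold was -0.08 with the head transcript covariate.

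AAEL025584 was lower in males in both tissues. It was at 4.54, 3.34, 4.85, 4.47 and 1.92 CPM in male pedicels and at 83.6, 185, 72.2, 87.4 and 75.4 CPM in female pedicels. In heads it held 0.839 ± 0.237 CPM in males and 3.4 ± 0.608 CPM in females. No male library reached a female library of the same tissue, and the log2 folds were -4.75 in the pedicel (SE 0.29) and -1.98 in the head (SE 0.35). The interaction of AAEL025584 was -2.77 (SE 0.48, edgeR adjusted p = 0.00106) and was called in each of the 36 alternative fits. AAEL008619 held 1.18 ± 0.842 CPM in male pedicels, 135 ± 61.6 CPM in female pedicels, 5.71 ± 3.76 CPM in male heads and 120 ± 40.7 in female heads. Females had a like level of it in both tissues, while males had less in the pedicel than in the head, and the interaction log2 fold was -2.65 (SE 0.67, edgeR adjusted p = 0.0146, lost with limma-voom and in either split of the pedicels).

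Where the larger fold was in the head, AAEL012513 averaged 47.4 ± 23.1 CPM in male pedicels, 77 ± 15 CPM in female pedicels, 19.5 ± 1.77 CPM in male heads and 79.9 ± 12.3 in female heads. Females were level between the tissues and male heads were lowest, with an interaction log2 fold of 1.32 (SE 0.35, edgeR adjusted p = 0.0196). That call was lost without male head 2 and female head 3 together, in the 5 pedicels of lower identical-copy share, and with the head transcript covariate, where the fold was 0.15. AAEL006872 also had its lowest level in male heads, at 43.2 ± 14.8 CPM in male pedicels, 96.2 ± 33.8 CPM in female pedicels, 12.5 ± 1.32 CPM in male heads and 66.5 ± 18.6 in female heads. Its interaction log2 fold was 1.25 (SE 0.35, edgeR adjusted p = 0.0257), lost without male pedicel 3, male head 4 or female head 1. The call on AAEL006872 was also lost with the head transcript covariate (log2 fold 0.81) and in the 5 pedicels of lower identical-copy share (0.60, or 0.45 without male pedicel 2), while the pedicels of higher share gave 1.99. AAEL022711, the 1 negative gene, was abundant in males of both tissues, at 48.4 to 72.2 CPM in male pedicels and 42.7 to 61.9 CPM in male heads. Female pedicels held 0.565, 12.7, 1.39, 0.891 and 0.255 CPM, and the female heads together had 1 count. The ratio of male to female heads was 2120, with a 95% counting interval of 380 to 83700 that covers counting error only. Its interaction log2 fold of -6.02 (SE 1.36, edgeR adjusted p = 0.00816) was -3.96 without female pedicel 2, where it was still called. AAEL022711 stayed in its form in all 20 fits that left out 1 library, and its call was lost with the head transcript covariate. DESeq2 gave a log2 fold of -6.30 and no adjusted p for it, so it could not be called there.

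A reversed sex difference was called for 20 genes, 0.176% of those tested. In 17, males were higher in the pedicel and lower in the head. The male pedicel was the highest group in 16 of these 17 and the male head the lowest in 16, and their medians were 47.6 CPM in male pedicels, 28.7 CPM in female pedicels, 15.8 CPM in male heads and 28.8 in female heads. The females of both tissues thus lay between the males of both tissues. The folds of the 20 kept opposite signs in pedicel and head under each alternative except the head transcript covariate, where 16 did. The calls were less firm. Of the 20, 7 were reversed in all 20 fits that left out 1 library, and with library totals alone 4 were, in a total of 10 reversed genes (4 positive, 6 negative). The number in the form was 37 without male pedicel 2, 48 without female pedicel 2, 35 without male head 2, 47 without female head 3, 11 without male head 3, and 13 without male pedicel 3, female pedicel 3, male head 1 or female head 4. The 3 negative genes became 27 without female head 3, 19 without male head 2, 18 without female pedicel 2, 12 without male pedicel 4 and 6 without male pedicel 2, and 1 or 2 in each of the other fits but that without female pedicel 1, which gave 3.

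AAEL026446 had the smallest interaction p of the named genes. It was at 211, 107, 117, 127 and 125 CPM in male pedicels and at 36.2, 37.2, 28.5, 29.6 and 35.8 CPM in female pedicels. In heads it was at 13.4, 13.2, 10.7, 14.6 and 11.2 CPM in males and at 34.8, 16, 30.1, 39.7 and 33.9 CPM in females. The sexes did not overlap in either tissue, and the female means of pedicel and head, 33.4 ± 4.07 and 30.9 ± 8.99 CPM, differed by less than the spread between libraries. Log2 folds were 2.04 in the pedicel (SE 0.21) and -1.30 in the head (SE 0.21), with an interaction of 3.33 (SE 0.30, edgeR adjusted p = 1.93e-06). AAEL024675 was at 382, 211, 314, 316 and 332 CPM in male pedicels and at 91.5, 129, 81.5, 102 and 105 CPM in female pedicels. In heads it was at 28.6, 28.2, 25.3, 30.8 and 32.7 CPM in males and at 46.5, 34, 44.9, 62 and 53.7 CPM in females. Here too the sexes did not overlap in either tissue, and pedicels of both sexes lay above heads. AAEL024675 had an interaction log2 fold of 2.33 (SE 0.23, edgeR adjusted p = 8.07e-06), and both genes were called in each of the 36 alternative fits.

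The 3 reversed genes of the other sign were lower in males than in females in the pedicel and higher in males in the head. AAEL004478 was at 1.16, 4.59, 1.91, 1.92 and 2.93 CPM in male pedicels and at 5.09, 4.05, 11.3, 8.25 and 8.69 CPM in female pedicels. In heads it was at 28.2, 10.5, 29, 20.3 and 23 CPM in males and at 7.33, 7.63, 13.2, 6.44 and 6.51 CPM in females. The sexes overlapped in the pedicel through male pedicel 2 and female pedicel 2, and in the head through male head 2 and female head 3. Its interaction log2 fold was -2.94 (SE 0.50, edgeR adjusted p = 9.81e-04). AAEL008401 averaged 5.63 ± 3.75 CPM in male pedicels, 17 ± 11.1 CPM in female pedicels, 35.9 ± 14.3 CPM in male heads and 10.7 ± 6.94 in female heads, with an interaction log2 fold of -3.40 (SE 0.77, edgeR adjusted p = 0.00837). AAEL002422, named after its values were seen because only 3 genes were in the class, averaged 2.12 ± 1.17, 4.86 ± 2.55, 12.6 ± 6.43 and 4.05 ± 1.99 CPM in male pedicels, female pedicels, male heads and female heads (interaction log2 fold -2.91, SE 0.66, edgeR adjusted p = 0.00826). Without male pedicel 2, AAEL002422 passed in the head alone. Of the 20 fits that left out 1 library, AAEL004478 was reversed in 20, AAEL008401 in 6 and AAEL002422 in 4. None of these 3 genes was called in the 5 pedicels of lower identical-copy share or with the head transcript covariate.

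**Figure D5:**
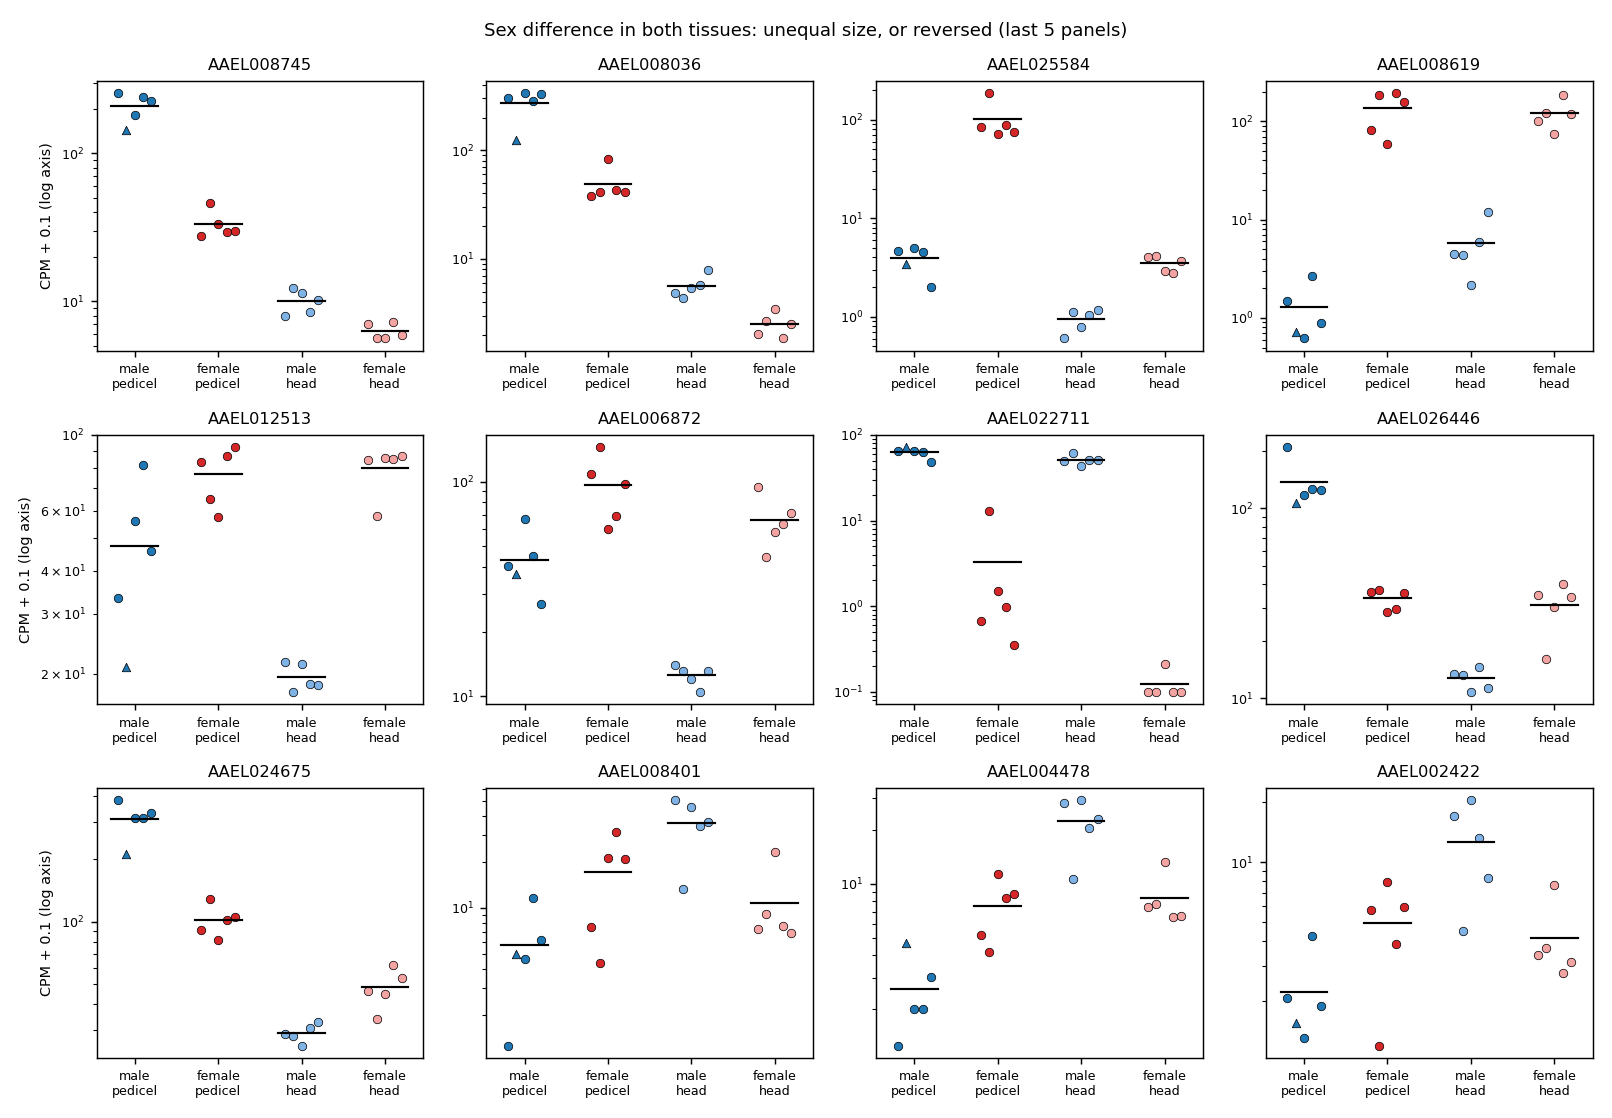
CPM + 0.1 on a log axis in each library of male pedicels, female pedicels, male heads and female heads for 7 genes with a sex difference of unequal size in both tissues and 5 reversed genes (AAEL026446, AAEL024675, AAEL008401, AAEL004478 and AAEL002422). Points are libraries, triangles are male pedicel 2 and bars are group means; AAEL026446 has male pedicels highest and male heads lowest with no overlap of the sexes in either tissue, while in the 3 reversed genes higher in male heads the lowest male head and the highest female head overlap.

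The last form held 62 genes (0.545%) whose interaction passed while neither tissue did, 17 positive and 45 negative. In all 62 the folds of pedicel and head had opposite signs, which follows almost wholly from the form. Folds of the same sign give an interaction smaller than the larger fold, with a larger SE. Medians were 5.78 CPM in male pedicels, 11.9 CPM in female pedicels, 18.9 CPM in male heads and 10 in female heads for the 45, with male heads highest and male pedicels lowest, as in the 3 reversed genes of that sign. None of the 62 stayed in this form in all 20 fits that left out 1 library. The number was 113 without male pedicel 2, and between 34 and 41 without male pedicel 1, female pedicel 4 or 5, male head 1 or 3, or female head 1, 4 or 5. AAEL024615, at 1.6 ± 1.17 CPM in male pedicels, 4.91 ± 3.91 CPM in female pedicels, 11.5 ± 4.49 CPM in male heads and 3.83 ± 2.88 in female heads, had an interaction log2 fold of -3.27 (SE 0.90, edgeR adjusted p = 0.0238), lost without male pedicel 1 or female pedicel 4 and in 7 of 16 other alternatives, limma-voom and library totals alone among them. In the pedicels of lower identical-copy share the fold of AAEL024615 was -0.92, and -1.10 without male pedicel 2. AAEL019966 had -2.81 (SE 0.87, adjusted p = 0.0405), a call lost in 14 of 20 fits that left out 1 library, all but those without male pedicel 2 or 4, female pedicel 1 or 2, male head 2 or female head 3. The call on AAEL019966 was also lost in 7 of 16 other alternatives, limma-voom among them. Its fold in the pedicels of lower identical-copy share was -1.63, and -1.46 without male pedicel 2. Of the positive genes, AAEL004124 had 0.69 (SE 0.19, adjusted p = 0.0231), lost with library totals alone, without a filter, with the head transcript covariate, without male head 2 and female head 3, and in either split of the pedicels. AAEL001937 had 0.78 (SE 0.25, adjusted p = 0.0438), lost in 17 of 20 fits that left out 1 library, all but those without male pedicel 2, female pedicel 2 or female head 4. The call on AAEL001937 was also lost in 6 of 16 other alternatives. Its fold in the pedicels of lower identical-copy share was 0.43, and 0.33 without male pedicel 2.

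Single libraries of both tissues recurred at the ends of their groups in the negative genes of the head-alone, reversed and neither forms. In 51 of these 60 genes (85%), male head 2 was the lowest of the male heads and female head 3 the highest of the female heads. The same held for 21.6% of all genes tested, and for 4 of the 83 positive genes of these forms. Both libraries thus lay toward the other sex for these negative genes. The forms were sorted on these same values. A low male head and a high female head help a gene higher in male heads to miss the head call. The neither form, where that call failed, holds 45 of the 60, with a share of 88.9%. In the 12 head-alone genes, which were called in the head, it was 66.7%. The shares in this paragraph thus follow in part from the sorting and carry no test. Without both of them, an alternative added after the data were seen, 72 genes were reversed, 21 positive and 51 negative, and 165 were in the head-alone form. Pedicel libraries also recurred in the 60 genes. Female pedicel 2 was the lowest of its group in 80% of them (29.2% of all genes tested) and male pedicel 1 in 70% (10.6%). Male pedicel 4 was the highest of its group in 66.7% (26.3%). What sets these head and pedicel libraries apart was not tested, and the labels do not separate them from the rest.

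Transcripts were also read one by one. Of the 20 reversed genes, 14 have 1 transcript, and in 5 of the 6 others the most abundant transcript had opposite signs in pedicel and head by itself.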

How the data were processed

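Pedicels and heads of both sexes gave 20 RNA-seq libraries in 4 groups of 5. The table the authors deposited gives unscaled estimated counts for each transcript. Per the submitters' processing notes, FastQC, HISAT2 and featureCounts were used. Not given in the sources used here are tool versions, build, annotation and the step that made counts fractional. Columns, named male_JO and the like, took their library from its sample description. A phenol-chloroform protocol gave the RNA, per the labels.

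Estimated counts were summed by gene ID and rounded. Of 19804 IDs, 11381 passed edgeR's filterByExpr, which asks for enough counts in as many libraries as 1 group holds, and 8423 did not. A gene high in 1 group passes this filter through that group. The 20 libraries entered 1 quasi-likelihood fit (edgeR 4.0.16, R 4.3.3) with TMM factors of 0.49 to 1.31. Male over female was tested in the pedicel and in the head, and the interaction as the difference of these, each adjusted by Benjamini-Hochberg over 11381 genes and called under 0.05. The form follows from the 3 calls. SEs are the absolute log2 fold over the square root of F. Intervals are 95% ones. CPM use TMM-scaled totals, without gene length, so levels are compared between libraries and not between genes.

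For each form and sign the text names up to 2 genes by largest interaction, among those in the same form with and without male pedicel 2, with at least 10 CPM in a group and no identical-copy transcript, so staying called without that library is part of the rule. Other genes of a class of 5 or fewer were named too. The members, lists and rule were chosen with earlier results of these data known. No ID was found in the RefSeq genes of AaegL5.0 (0 of 19804), so gene lists that rest on names were not analysed here and no sequences are shown.

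The 50 head transcripts reached 50 CPM in every head library with a log2 sex fold there between -0.5 and 0.5, and had the lowest value in any pedicel relative to heads, a choice that favours a gap between pedicels. A set of 263 transcripts of 244 gene IDs had the same values (to 3 decimals) as a transcript of another ID. No 2 libraries of a group agreed within sampling noise, with chi-square per degree of freedom of at least 5.39. Alternatives included DESeq2 1.42.0 and limma 3.58.1 (voom, and voomLmFit with a spread per tissue). All alternatives reuse the same libraries or part of them, so a call kept in many of them is not repeated evidence. The fits were tested on simulated data.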

Additional observations from a re-analysis of the deposited data

Results flagged for a closer look

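The interaction term of the edgeR fit was called for each gene named in the report. Being called was part of the naming rule, so this lends the genes no further support. Several of these calls were lost in alternative fits, as given above. The interaction log2 folds were 4.09 for AAEL029085, 3.79 for AAEL027785, -6.23 for AAEL017043 and -4.61 for AAEL004002 in the pedicel-alone form. In the head-alone form they were 1.83 for AAEL017136, 1.42 for AAEL003844, -3.36 for AAEL024981 and -2.59 for AAEL001231. Among genes with unequal folds in both tissues they were 1.98 for AAEL008745, 1.27 for AAEL008036, -2.77 for AAEL025584, -2.65 for AAEL008619, 1.32 for AAEL012513, 1.25 for AAEL006872 and -6.02 for AAEL022711. Reversed genes had 3.33 for AAEL026446, 2.33 for AAEL024675, -3.40 for AAEL008401, -2.94 for AAEL004478 and -2.91 for AAEL002422. Where neither tissue was called, the folds were 0.78 for AAEL001937, 0.69 for AAEL004124, -3.27 for AAEL024615 and -2.81 for AAEL019966.

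Single libraries lay far from the other 4 of their group in 19 of 100 group and gene combinations tested by Dixon's test. Chance gives about 1 in 20 where values are independent and normal. CPM of few counts need not be normal, and the same library recurs over several genes, so the 19 cannot be weighed against that rate. Female head 3 was the high one of the female heads for AAEL001231 (24.4 CPM), AAEL008401 (23 CPM), AAEL004478 (13.2 CPM), AAEL024615 (8.92 CPM), AAEL019966 (11.1 CPM) and AAEL002422 (7.56 CPM), and for AAEL022711 at 1 count (0.113 CPM). Female pedicel 2 was high for AAEL003844 (53 CPM), AAEL025584 (185 CPM), AAEL022711 (12.7 CPM) and AAEL001937 (18.2 CPM). Male pedicel 2 was low for AAEL003844 (32.2 CPM) and AAEL008036 (123 CPM), and high in the level of head transcripts (36.6%). The others were female head 4 for AAEL029085 (6.09 CPM), female pedicel 3 for AAEL008036 (82.9 CPM), female head 2 for AAEL012513 (58 CPM), male pedicel 1 for AAEL026446 (211 CPM) and male pedicel 4 for AAEL002422 (4.15 CPM).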

How the results depend on the processing

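Leaving out 1 library at a time gave 911 to 2694 interaction genes, 3753 to 5358 sex differences in the pedicel and 649 to 1198 in the head. The forms held 779 to 2321 genes (pedicel alone), 34 to 109 (head alone), 23 to 120 (same direction), 11 to 48 (reversed) and 34 to 113 (neither). With the head transcript covariate the interaction gave 43 genes, the pedicel 696, and the forms, in that order, 35, 1, 5, 2 and 0. The 0 is from edgeR, which had 1428 genes with an unadjusted interaction p under 0.05 there, and no other tool was run with this covariate. With library totals alone the interaction gave 426, the head 571, and the forms other than head alone 338, 14, 10 and 20. At an adjusted p under 0.01 the interaction gave 497, the head 520, and the forms 449, 18, 9, 5 and 16. Requiring a 2-fold change, the interaction gave 719, the pedicel 1743, the head 521, and the forms 521, 36, 15, 5 and 142. Head-alone, same-direction and reversed genes numbered 124, 90 and 40 with DESeq2, and 135, 96 and 43 with voomLmFit, which gave 1706 genes in the head and 39 in neither. Without a filter, 23 genes had the same direction and 11 were reversed. With a term for identical-copy share, head-alone genes numbered 106 and reversed genes 35. The pedicels of lower share gave 466 interaction genes and forms of 406, 24, 18, 12 and 6. Without male pedicel 2 they gave 2051, with 1818 pedicel-alone, 110 same-direction, 31 reversed and 32 neither. The pedicels of higher share gave 2275, with 1819 in the head, 208 head-alone, 134 same-direction and 146 reversed. Without male head 2 and female head 3 the head gave 1661, and the forms other than same direction 760, 165, 72 and 32. The splits by share and these last libraries were chosen after the data were seen, and the cause of these moves was not tested.

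The labels do not say that the replicate numbers mark a shared batch, and not every same-numbered pair deviated together, so the block is given here alone. Over 30 pairs of same-numbered libraries the correlation of deviations ran from -0.086 to 0.414, with 18 above 0.1. The own number was the highest in 14 of the 30. Every pair of number 2 (0.106 to 0.414) and of number 3 (0.129 to 0.34) was above 0.1. Pairs of numbers 1, 4 and 5 lay on both sides of 0.1. Libraries that stood apart above, such as male head 2 and female head 3, carry the numbers 2 and 3. Why libraries of these numbers deviated together was not tested. With the number as a block, 1990 interaction genes were called, 993 positive and 997 negative, with 118 head-alone, 105 same-direction and 42 reversed genes. The interaction log2 fold of AAEL008036 turned to -0.079 with the head transcript covariate. Depth limits the genes near 1 CPM, such as AAEL017043 with 7 counts over male pedicels and AAEL022711 with 1 over female heads.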

Other observations

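All 51 negative reversed genes found without male head 2 and female head 3 were interaction genes with all libraries too. Of the 51, 27 were in the pedicel-alone form with all libraries, 18 in the form with neither tissue called, 3 in the head-alone form and 3 were reversed.

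The threshold ran through a dense range. The adjusted p of 152 genes lay between 0.04 and 0.05, and that of 185 genes between 0.05 and 0.06.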
